A study of Mus musculus with 40 samples.

Results

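The 10 genes described here encode negative regulators of mitogen-activated protein (MAP) kinases: the dual-specificity phosphatases Dusp1, Dusp2, Dusp4, Dusp5, Dusp6, Dusp9, Dusp10 and Dusp16, and the Sprouty proteins Spry1 and Spry2. They were taken by name from the 24732 genes listed for each library, after removal of the suffixes that mark overlapping genes, and all 10 were found, none with such a suffix. RNA-seq of follicular B cells from C57BL/6 mice gave 28 libraries, all from mice with the MD4 transgene, whose B cell receptor binds hen egg lysozyme (HEL), so the controls carried it too. The study addressed what Ikaros, a zinc finger transcription factor encoded by Ikzf1, does in B cell anergy and in Toll-like receptor responses. The other 12 labelled samples, profiles of chromatin accessibility and of factor binding, were not analysed here.

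Cells sorted after 1 day of intravenous HEL came from 5 Cd23-cre Ikzf1(fl/fl) libraries (HEL Cre fl/fl) and 5 Ikzf1(fl/fl) libraries without Cre (HEL fl/fl), so the presence of Cre and the deletion cannot be told apart in that pair. Cells cultured for 1 day with CpG, a DNA ligand of Toll-like receptor 9, came from 4 Cd23-cre Ikzf1(fl/-) libraries (CpG Cre fl/-) and 4 Cd23-cre Ikzf1(fl/+) libraries (CpG Cre fl/+). Both CpG groups carried Cre, and the fl/- cells had, by their label, a null allele beside the floxed one. A pair of naive groups with the same genotypes as the CpG pair had 2 libraries each (naive Cre fl/- and naive Cre fl/+). By genotype, Cre fl/+ cells keep 1 intact allele after deletion, whereas the HEL controls keep both. Cre fl/+ cells are nevertheless counted below as Ikaros-sufficient, or as cells with Ikaros. A separate naive group of 3 libraries held 2 of Ikzf1(fl/+) without Cre and 1 of Cd23-cre Ikzf1(fl/+), and is called naive below. The anergic group of 3 libraries carried the ML5 transgene, which supplies soluble HEL as a self antigen, with 1 library each of Ikzf1(fl/fl), Ikzf1(fl/+) and Cd23-Cre Ikzf1(fl/+). Cd23-cre is active from the mature B cell stage on, so floxed alleles were lost late in B cell development. Library numbers fell into 3 series: 36 for the paired naive groups, 49 for the CpG groups, and 57 for the HEL, anergic and naive groups. Between series, series and condition cannot be told apart. The labels do not tell whether each library was a separate animal, and the p-values therefore speak of the spread among libraries alone, part of which may be technical.

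MAP kinases relay signals from the B cell receptor and from Toll-like receptors by being phosphorylated on a threonine and a tyrosine, and dual-specificity phosphatases remove both phosphates. Dusp1, Dusp2, Dusp4 and Dusp5 encode nuclear enzymes that are transcribed as a result of the signals they end, Dusp6 and Dusp9 encode enzymes of the cytoplasm, and Dusp10 and Dusp16 encode enzymes that act mainly on the stress kinases p38 and JNK. Sprouty proteins act upstream, on the step from receptor to Ras and Raf. In B cells the ERK branch of this system follows antigen contact, and tolerant cells that meet self antigen all the time keep part of it active.

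The sequences upstream of 4 members are shown because 3 of them, Dusp1, Dusp2 and Dusp5, were lower and Spry2 was higher in HEL-exposed cells without Ikaros. Each is the 250 bases before the RefSeq start of the gene in build GRCm38.p6, printed 5′ to 3′ on the gene's own strand, with the motifs found in capitals. The windows are chr17:26508473-26508722 on the minus strand for Dusp1, chr2:127335909-127336158 on the plus strand for Dusp2, chr19:53528895-53529144 on the plus strand for Dusp5 and chr14:105896820-105897069 on the minus strand for Spry2.
Dusp1: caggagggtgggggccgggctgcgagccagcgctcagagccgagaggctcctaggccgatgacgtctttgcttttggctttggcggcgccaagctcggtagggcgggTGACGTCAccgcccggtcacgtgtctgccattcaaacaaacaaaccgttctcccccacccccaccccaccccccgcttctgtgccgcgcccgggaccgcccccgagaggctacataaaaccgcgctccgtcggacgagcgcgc
Dusp2: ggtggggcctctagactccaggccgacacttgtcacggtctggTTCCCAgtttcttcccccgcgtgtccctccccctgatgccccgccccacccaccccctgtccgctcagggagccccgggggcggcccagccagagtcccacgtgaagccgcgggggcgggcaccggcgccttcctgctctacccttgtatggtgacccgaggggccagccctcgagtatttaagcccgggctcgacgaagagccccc
Dusp5: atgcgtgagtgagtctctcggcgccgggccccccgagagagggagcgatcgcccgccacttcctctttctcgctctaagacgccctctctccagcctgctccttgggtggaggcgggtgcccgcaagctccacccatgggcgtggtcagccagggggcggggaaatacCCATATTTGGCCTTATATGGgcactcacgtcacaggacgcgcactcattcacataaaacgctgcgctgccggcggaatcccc
Spry2: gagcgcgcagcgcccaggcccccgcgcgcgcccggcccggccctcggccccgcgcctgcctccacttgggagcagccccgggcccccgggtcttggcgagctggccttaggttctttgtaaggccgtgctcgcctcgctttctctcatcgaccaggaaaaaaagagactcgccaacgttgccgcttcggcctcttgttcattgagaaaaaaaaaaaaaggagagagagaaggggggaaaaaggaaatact
RefSeq windows were matched for 8 of the 10 members, Dusp4 and Dusp9 being the others, and 6 motifs were searched on both strands. The capitals in the Dusp1 window mark TGACGTCA, the cyclic AMP response element, 143 to 136 bases before the start, and 1.55% of the 32851 windows of the same length held that motif. The capitals in the Dusp2 window mark the reverse complement of TGGGAA, the core bound by Ikaros family factors, 207 to 202 bases before the start, and 21.6% of all windows held TGGGAA. The capitals in the Dusp5 window mark 2 adjacent CArG boxes, the element of serum response factor, 82 to 73 and 72 to 63 bases before the start, and 1.47% of all windows held a CArG box. No match to the 6 motifs lay in the windows of Dusp6, Dusp10, Dusp16, Spry1 or Spry2; the remaining 3 were TGANTCA for AP-1 (6.75% of all windows), CCGGAA for ETS factors (12.0%) and GCGTGGGCG for Egr factors (0.536%). The files' values were counted on mm9 and these windows are from another build, so they serve as sequence only.

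Expression is given in TPM, a level scaled to the length of the transcript and to the total of the library, from 12126702 to 25424364 reads assigned to genes per library, as recovered from the steps of the TPM values. The targeted gene followed the labels: Ikzf1 read 68.7, 63.9, 66.4, 60.3 and 79.3 TPM in HEL Cre fl/fl cells against 195 to 261 TPM in HEL fl/fl cells, 31.7 to 39.5 against 135 to 172 TPM in CpG Cre fl/- and Cre fl/+ cells, and 57.3 and 65.3 against 120.2 and 136 TPM in the naive pair. Ikzf1 ranged from 142 to 219 TPM in naive cells and from 179 to 319 TPM in anergic cells. Some Ikzf1 RNA thus remained in the cells called below without Ikaros. That name and the term loss of Ikaros rest on genotype, and Ikaros protein was not examined here. All 9 B cell markers exceeded 1 TPM in at least 1 library of every group. Their sum was 31137 to 37628 TPM in naive cells. It was 8311 to 10590 TPM in CpG Cre fl/- and 10060 to 12053 TPM in CpG Cre fl/+ cells, levels set across series. By Y-linked transcripts the 2 HEL groups held 3 female and 2 male libraries each, the naive pair 1 of each sex per genotype, and the other groups males only. Neutrophil markers summed to 20.9 to 83.4 TPM and NK cell markers to 14.5 to 30.9 TPM in the naive pair, while the naive libraries of series 57 had all 5 NK markers at 0 and neutrophil markers at no more than 0.498 TPM. In these bulk samples, fewer cells of a type and less RNA per cell cannot be told apart.

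Differences were tested on log2(TPM + 1) with limma over all genes with at least 1 TPM in as many libraries as the smaller group holds, with Benjamini-Hochberg adjustment over those genes, and a gene is said to have risen or fallen where the adjusted p was below 0.05. On that scale the change of genes near or under 1 TPM is understated, so ratios of mean TPM are given beside it.

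**Figure D1:**
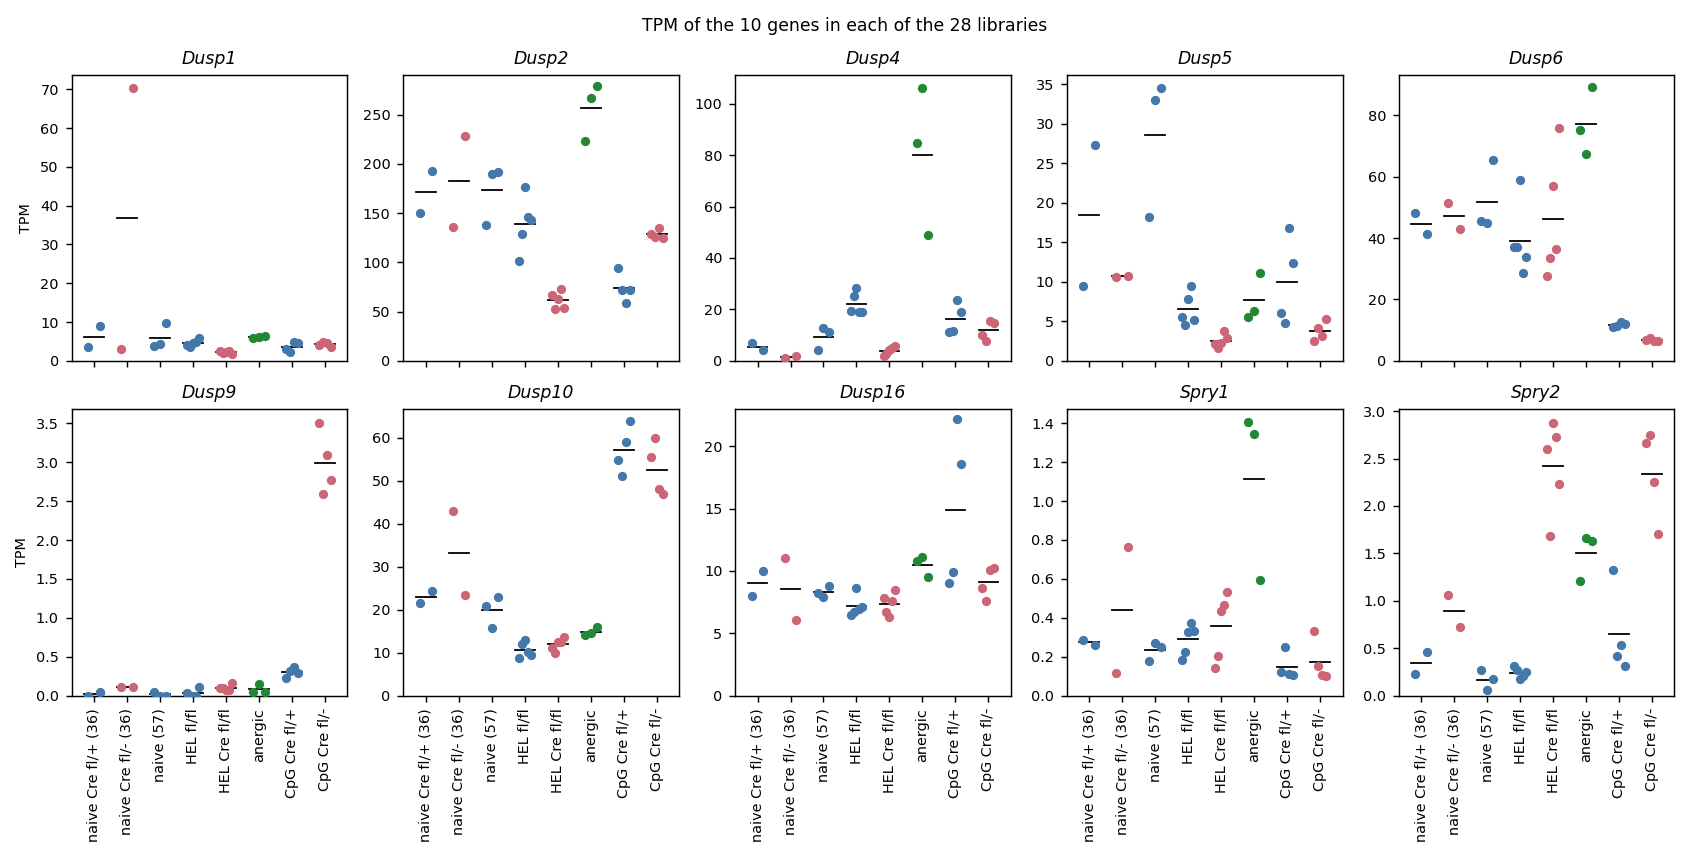
TPM (vertical axis, linear, a separate scale in each panel) of the 10 genes in the 8 groups (horizontal axis, library series in brackets for naive cells). Each point is 1 library and each bar the group mean, with red for the groups with Cre and no intact Ikzf1 allele, green for anergic cells and blue for the rest. Dusp4 is at 48.9 to 106 TPM in anergic cells and at no more than 28.5 TPM in any other library, and Dusp9 passes 1 TPM in the 4 CpG Cre fl/- libraries alone.

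In cells that had met HEL for 1 day, loss of Ikaros went with lower levels of all 4 nuclear phosphatase transcripts, Dusp1, Dusp2, Dusp4 and Dusp5, and with a higher level of Spry2. Of the 8 members tested 4 fell, 1 rose and 3 were not called, in a comparison in which 36.9% of the 10258 genes tested were called, 24.1% as lower and 12.9% as higher. The median difference of the 8 was −0.37 on the log2 scale, beside −0.08 for all genes. Spry2 passed the filter through its higher group alone, so these counts describe the members and are no test of them. In CpG-stimulated cells the pattern was another one: Dusp2, Dusp9 and Spry2 rose, Dusp6 fell and 5 of 9 tested members were not called, where 14.9% of 10386 genes were called, 9.14% as higher and 5.8% as lower. The median of the 9 was −0.12, beside 0.02 for all genes. Dusp9 and Spry2 passed the filter through the Cre fl/- libraries, where they are high, so they had to differ and these counts too are a description only. With a term for the run of library numbers, described below, 7 of the 9 were called, where that fit called 21.4% of all genes. In the naive pair none of the 7 tested members was called by limma, nor were more than 2 of 10053 genes (0.0199%), although 896 genes had an unadjusted p below 0.05. The targeted gene Ikzf1 was itself not called there (−1.05 ± 0.17, adjusted p = 0.0859), so the lack of calls in this pair does not show equal levels.

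**Figure D2:**
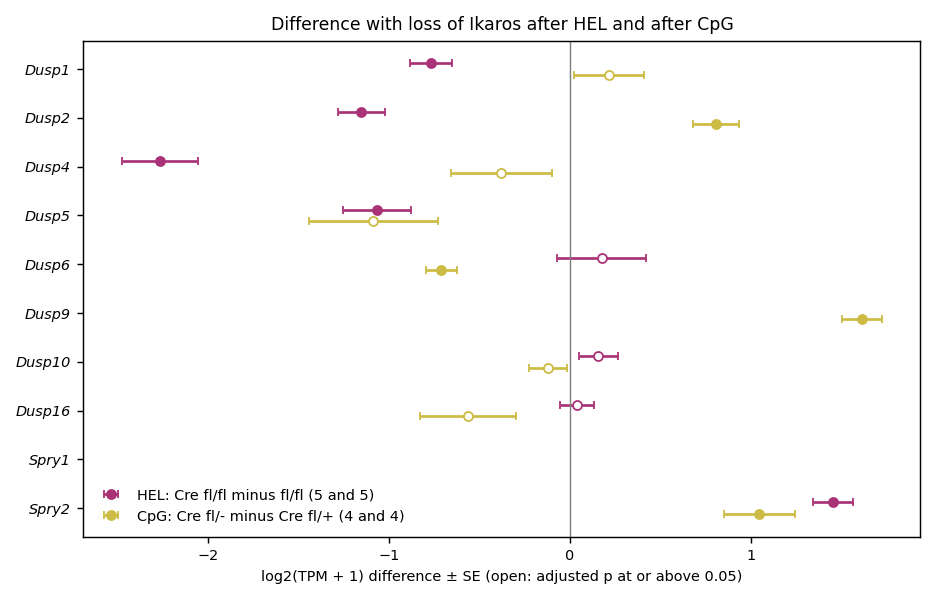
Difference in log2(TPM + 1) between cells without and with Ikaros (horizontal axis, 0 meaning no difference) for each of the 10 genes (vertical axis), after HEL (5 against 5 libraries) and after CpG (4 against 4). Points are limma estimates, bars are 1 SE, filled points have an adjusted p below 0.05, and genes that were not tested have no point. Dusp2 lies at −1.15 after HEL and at 0.81 after CpG, while Spry2 lies above 0 in both.

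Relative to naive cells of the same series, HEL-exposed Ikaros-sufficient cells had more Dusp4 and less Dusp5 and Dusp10, and anergic cells had more Dusp4 and Spry2 and less Dusp5. With HEL, 1 of 7 tested members rose and 2 fell, where 48.0% of 10448 genes were called, 38.1% as lower and 9.92% as higher. In anergic cells, 2 of 8 rose and 1 fell, where 7.37% of 10519 genes were called, 4.48% as higher and 2.89% as lower. In HEL-exposed cells without Ikaros, 1 of 8 rose and 5 fell relative to naive cells, where 64.2% of 10538 genes were called, 48.8% as lower and 15.4% as higher. The members' medians were −0.32, 0.44 and −0.84 on the log2 scale, beside −0.16, 0.07 and −0.23 for all genes. Spry2 passed the filter through the anergic or the HEL Cre fl/fl libraries alone, so the counts of members with it are a description only. These 3 comparisons share the naive libraries. All naive and anergic libraries were male while 3 of 5 in each HEL group were female, and a fit with a term for sex is cited where it changed a call. Scaling by median ratios in place of TPM moved the median of all genes by 0.17 with HEL and by 0.23 with HEL without Ikaros, and turned the split of calls over all genes from 1036 higher and 3979 lower to 2214 and 2004 in the first case.

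**Figure D3:**
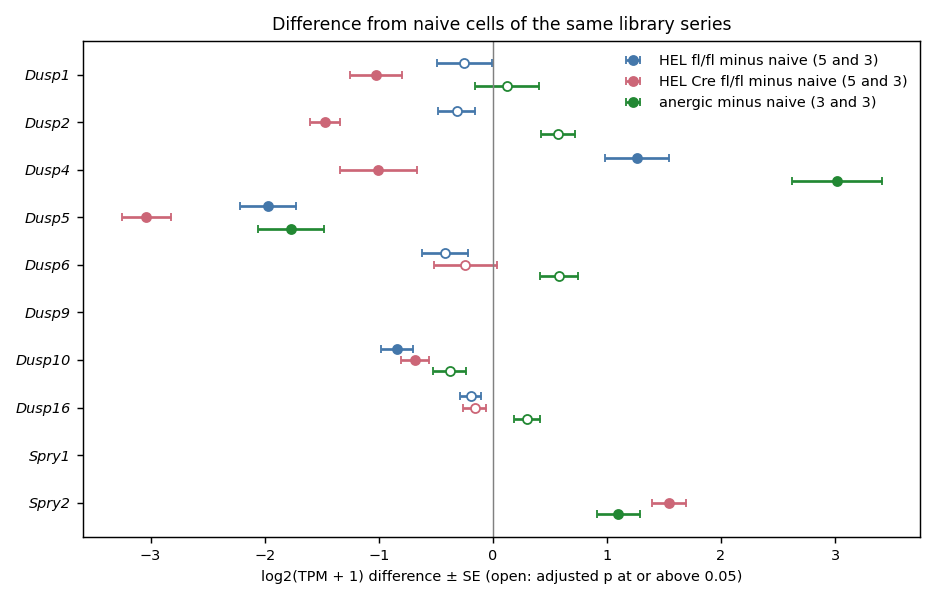
Difference in log2(TPM + 1) from the 3 naive libraries of the same series (horizontal axis, 0 meaning no difference) for each gene (vertical axis), in HEL fl/fl (5 libraries), HEL Cre fl/fl (5) and anergic cells (3). Points are limma estimates, bars are 1 SE, and filled points have an adjusted p below 0.05. Dusp4 lies at 3.02 in anergic cells, 1.27 in HEL fl/fl and −1.003 in HEL Cre fl/fl cells, and Dusp5 lies below −1.7 in all 3.

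Dusp4, which encodes a nuclear phosphatase of ERK and JNK, had the highest ratio of highest to lowest library among the nuclear enzymes. It stood at 19.3, 25.3, 28.5, 19.0 and 18.8 TPM in HEL fl/fl cells and at 1.87, 2.79, 4.22, 5.11 and 5.93 TPM in HEL Cre fl/fl cells. Every library without Ikaros was below every library with it. The means were 3.98 ± 1.66 and 22.2 ± 4.43 TPM (SD, n = 5 each), a ratio of 0.180, and the difference was −2.27 ± 0.21 (SE) on the log2 scale (limma, adjusted p = 3.88e-06). In naive cells Dusp4 read 4.16, 12.8 and 11.1 TPM, and in anergic cells 84.7, 106 and 48.9 TPM, with no overlap. Anergic cells thus had a mean of 79.9 ± 28.9 TPM against 9.34 ± 4.57 TPM (SD, n = 3 each), 8.55 times as much, a log2 difference of 3.02 ± 0.40 (adjusted p = 0.00359). The lowest anergic value, 48.9 TPM, came from the library with Cre, which held 179 TPM of Ikzf1 against 304 and 319 TPM in the others. The naive library with Cre, at 11.1 TPM of Dusp4, lay between its partners. A part of genotype in these values was not tested. HEL exposure of Ikaros-sufficient cells went with a rise of 1.27 ± 0.28 over naive cells (adjusted p = 0.00416), again without overlap. Between anergic and HEL fl/fl cells the difference was 1.75 ± 0.23 (adjusted p = 0.000552), and 1.501 after scaling by median ratios (adjusted p = 0.00114). HEL Cre fl/fl cells lay below naive cells by a log2 difference of −1.003 ± 0.34 (adjusted p = 0.0221), but the groups overlapped, and the call was lost after median-ratio scaling (adjusted p = 0.0685), with no filter (0.0688), with a sex term (0.242), without the second naive library (0.111) and without the third (0.107). In the naive pair Dusp4 read 1.20 and 1.69 TPM in Cre fl/- cells against 6.86 and 4.16 TPM in Cre fl/+ cells. Those values did not overlap, with a log2 difference of −1.39 ± 0.29 that was not called (adjusted p = 0.123). A limma fit with a sex term called it (adjusted p = 0.000689). With 1 library per genotype and sex, the SE of that fit (0.308) came mainly from the variance of other genes.

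After CpG, Dusp4 read 10.2, 7.72, 15.6 and 14.8 TPM in Cre fl/- cells and 11.0, 11.6, 23.5 and 18.8 TPM in Cre fl/+ cells. The ranges overlapped and the difference of −0.38 ± 0.28 was not called (adjusted p = 0.399). The CpG libraries came in 2 runs of consecutive numbers, with 2 libraries of each genotype in each, and the later run had the higher values of Dusp4 in both genotypes. Within the runs the difference was −0.32 and −0.44, and with a term for the run it was −0.38 ± 0.11 (adjusted p = 0.0387). The effect of Ikaros loss on Dusp4 differed between CpG and HEL by 1.89 ± 0.38 on the log2 scale (limma interaction, adjusted p = 0.00163), a test in which 4 of 9 members were called, all 4 as positive, and 22.4% of 11050 genes, 15.2% as positive and 7.19% as negative. The pairs compared there differ in their alleles and in Cre as well as in stimulus.

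Dusp2 encodes a nuclear phosphatase found mainly in blood cells, and was the most abundant of the 10 in every group. It read 66.4, 52.4, 62.6, 73.1 and 53.2 TPM in HEL Cre fl/fl cells and 102, 129, 177, 146 and 143 TPM in HEL fl/fl cells. The groups did not overlap, with means of 61.6 ± 8.83 and 139 ± 27.3 TPM (SD, n = 5 each) and a log2 difference of −1.15 ± 0.13 (limma, adjusted p = 1.97e-05). After CpG the order was the opposite. Dusp2 read 129, 126, 134 and 125 TPM in Cre fl/- cells and 93.9, 72.3, 58.4 and 71.9 TPM in Cre fl/+ cells, again with no overlap. The means were 129 ± 4.23 and 74.1 ± 14.7 TPM (SD, n = 4 each), a ratio of 1.74 and a log2 difference of 0.81 ± 0.13 (adjusted p = 0.00362), and 0.63 and 0.99 within the runs. The difference between the effects was 1.96 ± 0.20 (limma interaction, adjusted p = 3.11e-06).

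Relative to naive cells, with 138, 189.6 and 191 TPM, Dusp2 fell in HEL Cre fl/fl cells by 1.47 on the log2 scale (SE 0.13, adjusted p = 4.9e-06). In HEL fl/fl cells the difference was −0.32 ± 0.16 (adjusted p = 0.128), and it was called without the third HEL fl/fl library (−0.41, adjusted p = 0.0461) or the first naive library (−0.47, adjusted p = 0.0467). Anergic cells held 223, 267 and 279 TPM, above every naive and HEL library of series 57. Their difference from naive cells was 0.57 ± 0.15 (adjusted p = 0.0566), and a fit on the recovered reads called it (voom, adjusted p = 0.0416). Their difference from HEL fl/fl cells was 0.89 ± 0.15 (adjusted p = 0.00217), or 0.63 after median-ratio scaling (adjusted p = 0.0168). In the naive pair the values were 136 and 229 TPM in Cre fl/- cells and 150.0 and 193 TPM in Cre fl/+ cells, which overlapped.

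Dusp5 encodes a nuclear phosphatase specific for ERK, and it was highest in naive cells. It read 18.2, 33.0 and 34.6 TPM there, 5.50, 4.48, 7.86, 9.49 and 5.19 TPM in HEL fl/fl cells, and 5.58, 6.36 and 11.1 TPM in anergic cells. Both antigen-exposed groups lay below every naive library of series 57. The log2 differences from naive cells were −1.97 ± 0.24 with HEL (limma, adjusted p = 0.000173) and −1.77 ± 0.29 in anergic cells (adjusted p = 0.00992), the latter not called without the first anergic library (0.0585) or the third naive library (0.0543). Anergic and HEL fl/fl cells differed by 0.20 ± 0.24 (adjusted p = 0.522). In HEL Cre fl/fl cells Dusp5 read 2.16, 1.66, 2.30, 3.73 and 2.88 TPM, below every HEL fl/fl library. Their means were 2.55 ± 0.79 and 6.51 ± 2.10 TPM (SD, n = 5 each), with a log2 difference of −1.07 ± 0.19 (adjusted p = 0.000666).

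After CpG, Dusp5 read 2.46, 4.19, 3.17 and 5.30 TPM in Cre fl/- cells and 5.99, 4.80, 16.8 and 12.3 TPM in Cre fl/+ cells, from 24 to 139 reads per library. The highest Cre fl/- value exceeded the lowest Cre fl/+ value. The difference of −1.09 ± 0.35 was not called (adjusted p = 0.072) but was with a term for the run (−1.09 ± 0.25, adjusted p = 0.0153), and without the first (0.0484) or the second (0.0353) Cre fl/+ library. Within the runs it was −0.59 and −1.59. The effects after CpG and after HEL differed by −0.02 ± 0.41 (adjusted p = 0.976). In the naive pair the values were 10.6 and 10.7 TPM against 9.47 and 27.4 TPM, with overlap.

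Dusp1 encodes a nuclear phosphatase of p38 and JNK that is among the earliest transcripts after many stimuli. It read 2.52, 2.02, 2.28, 2.54 and 1.77 TPM in HEL Cre fl/fl cells and 4.12, 3.43, 4.58, 4.77 and 5.75 TPM in HEL fl/fl cells. The groups did not overlap, with means of 2.23 ± 0.33 and 4.53 ± 0.85 TPM (SD, n = 5 each) and a log2 difference of −0.77 ± 0.12 (limma, adjusted p = 0.000212). The naive libraries had 3.75, 4.39 and 9.85 TPM and the anergic ones 5.84, 6.10 and 6.38 TPM. HEL Cre fl/fl cells lay below naive cells by a log2 difference of −1.02 ± 0.23 (adjusted p = 0.00223), whereas HEL fl/fl cells (−0.25 ± 0.24, adjusted p = 0.408) and anergic cells (0.12 ± 0.28, adjusted p = 0.843) were not called. Anergic and HEL fl/fl cells differed by 0.38 ± 0.13 (adjusted p = 0.0446), a call lost in 11 of 13 alternative analyses, with 0.16 after median-ratio scaling (adjusted p = 0.419). After CpG, Dusp1 ranged from 3.53 to 4.73 TPM in Cre fl/- cells and from 2.22 to 4.74 TPM in Cre fl/+ cells, with a difference of 0.22 ± 0.19 (adjusted p = 0.49). The effects of Ikaros loss after CpG and after HEL differed by 0.98 ± 0.22 (limma interaction, adjusted p = 0.00398).

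A library of naive Cre fl/- cells stood apart for Dusp1, at 70.4 TPM, against 3.04 TPM in the other library of that group and 3.49 and 8.91 TPM in naive Cre fl/+ cells. The same library held 279 TPM of Fos and 28.1 TPM of Fosb, both encoding parts of the AP-1 factor, where its partner held 6.14 and 0.461 TPM. Junb, Ppp1r15a and Nr4a1 were also highest in it among the naive pair, at 600, 107 and 16.1 TPM. Egr1, Egr2, Egr3 and Ier2 were not, at 15.5, 1.59, 13.2 and 142 TPM, within the range of the other libraries of the pair. For Dusp1 the difference between the naive pair was 1.35 ± 1.06 and was not called (adjusted p = 0.709). A limma fit with a sex term called it (adjusted p = 0.00111). With 1 library per genotype and sex, the SE of that fit (0.308) came mainly from the variance of other genes. Cre fl/- and Cre fl/+ cells read 3.04 and 3.49 TPM in males but 70.4 and 8.91 TPM in females, opposite in direction. Without the library that stood apart, the difference between the naive pair was −0.72 ± 0.50. Each genotype had 1 library of each sex, and the library that stood apart was female.

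Dusp6 encodes the main cytoplasmic phosphatase of ERK. After CpG it read 6.73, 7.29, 6.395 and 6.48 TPM in Cre fl/- cells and 10.9, 11.2, 12.6 and 11.9 TPM in Cre fl/+ cells. The values did not overlap, and the spread within each group was narrow, with means of 6.72 ± 0.40 and 11.7 ± 0.75 TPM (SD, n = 4 each). The log2 difference was −0.71 ± 0.08 (limma, adjusted p = 0.000875), and −0.59 and −0.83 within the runs. After HEL the libraries spread widely, at 27.8, 33.5, 56.9, 36.5 and 75.8 TPM in Cre fl/fl cells and at 37.2, 37.1, 58.9, 28.7 and 33.9 TPM in fl/fl cells. These groups overlapped, with a difference of 0.17 ± 0.25 (adjusted p = 0.613). The difference between the effects was −0.89 ± 0.32, with an adjusted p of 0.0552 that ranged from 0.0204 to 0.0989 over the alternatives.

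Naive cells held 45.5, 45.0 and 65.3 TPM of Dusp6 and anergic cells 75.4, 67.4 and 89.2 TPM. Every anergic library exceeded every naive one, by a log2 difference of 0.58 ± 0.17 that was not called (adjusted p = 0.0779) except without the third naive library, the 1 with Cre (0.0403). From HEL fl/fl cells the anergic libraries differed by 1.00 ± 0.19 (adjusted p = 0.00358), or 0.74 after median-ratio scaling (adjusted p = 0.0168). HEL fl/fl and naive cells differed by −0.42 ± 0.20 (adjusted p = 0.109), and a fit with a sex term (−0.70, adjusted p = 0.0261) or without the third HEL fl/fl library (−0.57, adjusted p = 0.00903) called the difference. The 5 Ikaros-sufficient naive libraries of both series held 41.2 to 65.3 TPM and the 8 CpG libraries 6.395 to 12.6 TPM, levels set across series.

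Dusp9 encodes a cytoplasmic phosphatase of ERK and p38. It was near 0 in the 20 libraries without CpG, with 0 to 4 reads each and at most 0.164 TPM. After CpG it read 3.51, 2.60, 3.09 and 2.77 TPM in Cre fl/- cells, from 55 to 80 reads, and 0.228, 0.319, 0.361 and 0.290 TPM in Cre fl/+ cells, from 4 to 7 reads. The groups did not overlap, and the ratio of the means, 2.99 ± 0.40 and 0.300 ± 0.056 TPM (SD, n = 4 each), was 9.98. Dusp9 was tested only because the Cre fl/- libraries exceed 1 TPM, so it had to differ, and its tests describe the size of the difference. On the log2 scale that was 1.61 ± 0.11 (limma, adjusted p = 5.03e-05), and 1.66 and 1.57 within the runs. The interaction with HEL was 1.52 ± 0.12 (adjusted p = 2.59e-07), but a fit on the recovered reads did not call it (voom, 1.34, adjusted p = 0.109).

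Dusp10 encodes a phosphatase of p38 and JNK. It read 20.8, 15.8 and 22.8 TPM in naive cells, 8.69, 12.0, 12.9, 10.1 and 9.41 TPM in HEL fl/fl cells and 11.2, 9.86, 12.3, 12.5 and 13.6 TPM in HEL Cre fl/fl cells. Both HEL groups lay below every naive library, by log2 differences of −0.84 ± 0.14 (limma, adjusted p = 0.00101) and −0.68 ± 0.13 (adjusted p = 0.000665). They overlapped each other, with a difference of 0.16 ± 0.11 between cells without and with Ikaros (adjusted p = 0.283). Anergic cells, at 14.0, 14.6 and 15.9 TPM, were not called against naive cells (−0.38 ± 0.14, adjusted p = 0.163). Against HEL fl/fl cells they differed by 0.46 ± 0.13 (adjusted p = 0.0154), which median-ratio scaling (0.22, adjusted p = 0.218) and the fit on recovered reads (0.34, adjusted p = 0.0803) did not call. After CpG all 8 libraries held 46.8 to 63.8 TPM, with overlap between genotypes and a difference of −0.12 ± 0.10 (adjusted p = 0.464). Beside them, the 5 Ikaros-sufficient naive libraries held 15.8 to 24.4 TPM, a level set across series.

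Dusp16, which encodes a phosphatase of JNK, had the narrowest relative range of the 8 phosphatases. It ranged from 6.28 to 8.61 TPM over the 10 HEL libraries, from 7.91 to 8.76 TPM in naive cells and from 9.52 to 11.1 TPM in anergic cells. Loss of Ikaros after HEL gave a difference of 0.04 ± 0.09 (limma, adjusted p = 0.788). HEL fl/fl and naive cells differed by −0.20 ± 0.09 (adjusted p = 0.111), a difference called without the third HEL fl/fl library (−0.26, adjusted p = 0.02). Anergic cells were above every naive library of series 57, by 0.30 ± 0.11 (adjusted p = 0.155), and above every HEL fl/fl library, by 0.49 ± 0.11 (adjusted p = 0.00602), or 0.26 after median-ratio scaling (adjusted p = 0.0527). After CpG the runs stood apart in Cre fl/+ cells, with 8.99 and 9.91 TPM in the first and 22.2 and 18.6 TPM in the second, while Cre fl/- cells held 8.66, 7.55, 10.1 and 10.2 TPM. The difference was −0.20 in the first run and −0.93 in the second. It was not called without a term for the run (−0.57 ± 0.27, adjusted p = 0.189) and was with it (−0.57 ± 0.15, adjusted p = 0.0309).

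**Figure D4:**
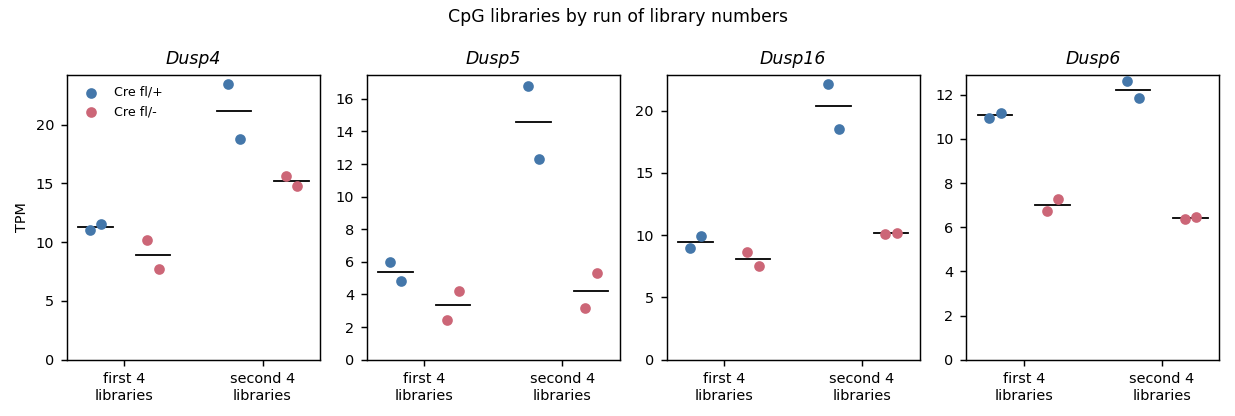
TPM (vertical axis, linear) of Dusp4, Dusp5, Dusp16 and Dusp6 in the 8 CpG libraries, split by run of library numbers (horizontal axis) and genotype (colour). Points are libraries and bars the mean of 2. For Dusp4, Dusp5 and Dusp16 the Cre fl/+ libraries of the second run exceed those of the first, as with Dusp16 at 22.2 and 18.6 against 8.99 and 9.91 TPM, and for all 4 genes the Cre fl/- libraries lie below the Cre fl/+ libraries within each run.

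The runs also differed in other transcripts. The 5 neutrophil markers summed to 0 to 0.206 TPM in the 4 libraries of the first run, to 14.8 and 122 TPM in the Cre fl/+ libraries of the second, and to 6.80 and 18.4 TPM in its Cre fl/- libraries. Their part in the differences between runs was not tested.

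Spry2, an inhibitor of Ras-ERK signalling downstream of receptor tyrosine kinases, was highest in HEL-exposed and CpG-stimulated cells without Ikaros, followed by anergic cells. It read 0.309, 0.266, 0.174, 0.204 and 0.248 TPM in HEL fl/fl cells, from 4 to 7 reads, and 2.61, 1.68, 2.88, 2.72 and 2.23 TPM in HEL Cre fl/fl cells, from 42 to 83 reads. Spry2 passed the filter in each of its comparisons through the groups in which it was high, so its tests describe the size of the difference. The HEL groups did not overlap, and the ratio of the means, 2.42 ± 0.48 and 0.240 ± 0.053 TPM (SD, n = 5 each), was 10.1. On the log2 scale Spry2 rose by 1.45 ± 0.11 (limma, adjusted p = 7.51e-07). After CpG it read 2.66, 2.75, 2.25 and 1.70 TPM in Cre fl/- cells and 1.33, 0.413, 0.534 and 0.313 TPM in Cre fl/+ cells. These groups did not overlap either, with means of 2.34 ± 0.48 and 0.647 ± 0.46 TPM (SD, n = 4 each), a ratio of 3.62 and a rise of 1.05 ± 0.20 (adjusted p = 0.00845), and 1.03 and 1.06 within the runs. The effects after CpG and after HEL differed by −0.41 ± 0.21 (adjusted p = 0.183).

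In the naive pair Spry2 read 1.07 and 0.719 TPM in Cre fl/- cells and 0.228 and 0.464 TPM in Cre fl/+ cells. Without a filter on low genes, the difference of 0.49 ± 0.15 had an adjusted p of 0.661. Naive cells of series 57 held 0.269, 0.0537 and 0.177 TPM, from 1 to 5 reads, and anergic cells 1.21, 1.67 and 1.63 TPM, from 18 to 30 reads. The anergic libraries lay above every naive and HEL fl/fl library. They differed by 1.10 ± 0.19 from naive cells (adjusted p = 0.0119, or 0.0561 without the second naive library) and by 1.01 ± 0.14 from HEL fl/fl cells (adjusted p = 0.000915).

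Spry1, the other Sprouty member, did not pass the filter in any comparison. It read 1.41, 1.35 and 0.593 TPM in anergic cells, from 13 to 26 reads, and at most 0.764 TPM in the other 25 libraries. In a fit with no filter, anergic cells differed from naive cells by 0.76 ± 0.16 (adjusted p = 0.0685) and from HEL fl/fl cells by 0.69 ± 0.13 (adjusted p = 0.0105). Naive libraries of series 57 held 4 to 6 reads of Spry1.

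Against HEL fl/fl cells, anergic cells had more Dusp2, Dusp4, Dusp6 and Spry2 under every scaling. Of 8 tested members, which include Spry2 through the anergic libraries alone, 7 rose and none fell, in a comparison in which 36.8% of 10491 genes were called as higher and 5.39% as lower, with a median of 0.69 for the members and 0.23 for all genes. Median-ratio scaling moved the median of all genes by −0.24, left 4 members called, and turned the calls over all genes from 3860 higher and 565 lower to 1073 and 1432.

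Of the 9 B cell markers, 4 were lower and 2 higher with loss of Ikaros after HEL, and 5 were lower and none higher after CpG. Over all genes tested, 24.1% were lower and 12.9% higher after HEL, and 5.8% lower and 9.14% higher after CpG. Markers of other cells also differed between the HEL groups. The 6 monocyte and macrophage markers summed to 30.8 to 43.0 TPM in HEL Cre fl/fl cells and 11.5 to 17.6 TPM in HEL fl/fl cells, with 3 of 5 tested called as higher, and the 5 dendritic cell markers summed to 16.2 to 23.7 against 4.23 to 7.47 TPM, with 4 of 4 called. The 4 plasma cell markers summed to 123 to 158 against 72.3 to 94.3 TPM, with 2 of 2 called. Only 2 of the 5 dendritic cell markers passed 1 TPM in any HEL fl/fl library. The others tested passed the filter through the HEL Cre fl/fl libraries, where they are high. In naive cells the sums were 11.5 to 20.1 TPM for monocyte and macrophage, 10.8 to 22.0 TPM for dendritic cell and 103 to 114 TPM for plasma cell markers. No gene of these 3 lists was at 0 throughout either HEL group, whereas the NK cell genes Ncr1, Gzma and Gzmb were at 0 in all 10 HEL libraries. Among CpG libraries the dendritic cell markers summed to 29.1 to 38.2 TPM in Cre fl/- and 12.2 to 27.3 TPM in Cre fl/+ cells. Only 1 of the 5 passed 1 TPM in any library of either CpG group, so these sums rest mainly on 1 gene. It was the only 1 tested, and was called as higher. Siglech and Cd209a were at 0 in Cre fl/+ cells. The part of all these markers in the members' differences, Spry2 included, was not tested.

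Transcripts tied to ERK signalling were counted beside its inhibitors, from a list of 22 genes that holds no member. The list mixes transcripts that ERK signalling can induce with factors that carry its response, such as Elk1, Elk3, Elk4 and Srf. After HEL, loss of Ikaros went with 10 of 17 tested genes lower and 2 higher, with a median of −0.48 on the log2 scale. Over all genes tested there, 24.1% were lower and 12.9% higher, with a median of −0.08. Nr4a1, an orphan receptor gene induced by antigen receptor signalling, fell from 28.3 ± 8.66 to 6.82 ± 2.26 TPM (SD, n = 5 each; log2 difference −1.90 ± 0.21, adjusted p = 1.54e-05), and Egr3, a zinc finger factor gene, from 65.4 ± 13.4 to 29.7 ± 12.2 TPM (−1.17 ± 0.21, adjusted p = 0.000858). After CpG 6 of 18 were higher and 2 lower, with a median of 0.13, where 9.14% of all genes were higher and 5.8% lower, with a median of 0.02. There Nr4a1 rose from 10.4 ± 0.785 to 17.9 ± 2.02 TPM (SD, n = 4 each; 0.73 ± 0.10, adjusted p = 0.00188) and Egr1 rose by 0.81 ± 0.12 (adjusted p = 0.0033). In anergic cells 8 of 18 were higher than in naive cells and none lower, where 4.48% of all genes were higher and 2.89% lower. Egr3 led them, at 265 ± 34.5 against 16.0 ± 3.31 TPM (SD, n = 3 each), a log2 difference of 3.98 ± 0.16 (limma, adjusted p = 2.76e-05).

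Over all genes tested for loss of Ikaros after HEL, 24.1% fell and 12.9% rose. Among 16 other phosphatases of MAP kinases, mostly dual-specificity, 2 of 12 tested fell in that comparison and none rose. They were Dusp3, a small phosphatase of ERK and JNK, at 5.63 ± 0.842 against 10.3 ± 1.48 TPM (SD, n = 5 each; −0.77 ± 0.11, adjusted p = 0.000108), and Dusp28 (−0.38 ± 0.10, adjusted p = 0.00722). Median-ratio scaling called 2 higher and 2 lower. None of 12 was called after CpG by limma, where 14.9% of all genes were. Of 17 Sprouty, Spred and other Ras-ERK inhibitors, 5 of 14 tested were lower and 1 was higher after HEL, beside the same shares over all genes. Dok3, an adaptor that restrains B cell receptor signalling, fell from 353 ± 7.27 to 134 ± 9.37 TPM (SD, n = 5 each; −1.39 ± 0.05, adjusted p = 1.02e-09), and Rasa3, a Ras GTPase activating protein, fell by 0.76 on the log2 scale (adjusted p = 1.42e-06). After CpG 2 of 14 were higher, Rasal1 and Errfi1, and 2 lower, Rasa3 and Rasa2, where 9.14% of all genes were higher and 5.8% lower.

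Of the 22 genes of the Ras-ERK chain itself, 7 were lower and 5 higher with loss of Ikaros after HEL, or 5 and 5 after median-ratio scaling. Over all genes tested after HEL, 24.1% were lower and 12.9% higher before that scaling. Rasgrp2, a Ras family exchange factor, fell by 1.09 (SE 0.07, adjusted p = 1.43e-07) and Mapk3, which encodes an ERK, by 0.52 (SE 0.08, adjusted p = 0.000166) on the log2 scale. After CpG 1 was lower, Map3k8 (−0.55 ± 0.11, adjusted p = 0.013), and 2 were higher. Of 24 genes of the p38, JNK and ERK5 chains, 6 of 22 tested were lower and 2 higher after HEL, beside the same shares over all genes. After median-ratio scaling 4 were lower and 4 higher. Mapk11, which encodes a p38 kinase, fell from 46.4 ± 10.7 to 12.3 ± 2.76 TPM (SD, n = 5 each; −1.83 ± 0.16, adjusted p = 2.25e-06), and Mapk12, which encodes another, from 6.75 ± 2.93 to 0.685 ± 0.181 TPM (−2.13 ± 0.20, adjusted p = 4.23e-06). Mapk12 passed the filter through the HEL fl/fl libraries, where it was high, so its test describes the size of the difference. After CpG 2 of 21 were higher, Mapkapk2, a kinase activated by p38 (0.78 ± 0.09, adjusted p = 0.000743), and Map3k4, and none was lower. Over all genes tested after CpG, 9.14% were higher and 5.8% lower.

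The genes most like each member across the 28 libraries were named from Pearson's r of log2(TPM + 1) over 8962 genes, for the 7 phosphatases with a mean of at least 5 TPM in some group. The libraries share their series and stimulus, so the values only describe these data. Dusp6 was most like Il2rg (r = 0.97), the common chain of cytokine receptors, Tor4a (0.96) and Cyb561d1 (0.96), and Il2rg averaged 179 TPM in CpG Cre fl/+ and 576 TPM in naive cells. Dusp10 was most like Rpn2 (0.96), of the glycosylation machinery of the endoplasmic reticulum, Clic4 (0.96) and Uchl1 (0.96). Dusp4 was most like Pde7a (0.90), a phosphodiesterase, Adck4 (0.88) and Ets2 (0.87), a transcription factor gene that averaged 31.8 TPM in anergic and 3.02 TPM in naive cells. Dusp2 was most like Glul (0.81), Mfge8 (0.79) and Lta (0.78), Dusp5 like Slc16a10 (0.83), Nudt6 (0.82) and Arf6 (0.81), and Dusp16 like Sco1 (0.87), Fam84b (0.84) and Ccdc64 (0.82). Dusp1 was most like Ppp1r15a (0.93), Junb (0.89) and Fosb (0.76), and these fell to 0.74, 0.79 and 0.54 without the naive Cre fl/- library that stood apart.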

How the data were processed

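RNA-seq values were deposited by the authors as TPM per gene and library (24732 genes, 28 libraries). Per the submitters' processing notes, the tools named for the series were TopHat 1.4.1, Bowtie, SAMtools 1.4, featureCounts 1.5.0 and deepTools 3.0.1, with build mm9, with no role given for each. Per the labels' protocols, RNA was extracted with column kits and mRNA was purified on beads. TPM keeps no depth, but the steps between values could be read as whole reads for all 18843 genes above 0 (tolerance 0.01), with totals of 12126702 to 25424364 reads per library. Reads were assigned to genes by the authors, and 3539 rows marked as overlapping other genes were kept and are uncertain.

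The main test, run in R 4.3.3, was that of limma 3.58.1 with its trend option, two-sided and on log2(TPM + 1), on the 2 groups compared, or on 4 groups with at least 4 libraries of 1 TPM or more for the difference between CpG and HEL. It was tested on simulated data. Groups came from the labels, and sex from Y-linked transcripts of the mice. Alternatives were a pseudocount of 0.1 TPM, no filter, median-ratio scaling, voom on the recovered reads, leaving out each library, a term for the run of library numbers (CpG) and a term for sex. The sex term was planned for the naive pair and was chosen after seeing the data for the other comparisons. The members, the 5 pathway lists and the marker lists were chosen with earlier results of these data known. All 10 members are described. From each pathway list and comparison, up to 4 called genes with the smallest adjusted p and at least 5 TPM in the higher group could be named, and the 3 genes most like each member. Fos, Fosb and the transcripts given beside them in the naive library with high Dusp1 were named after their values were seen. Motifs were searched in RefSeq windows of GRCm38.p6. Profiles other than RNA-seq were not analysed here.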

Additional observations from a re-analysis of the deposited data

Results flagged for a closer look

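In HEL fl/fl cells the third library was far above the other 4 for Dusp6, at 58.9 TPM against 28.7 to 37.2 TPM, and for Dusp16, at 8.61 TPM against 6.48 to 7.07 TPM. Of 31 combinations of a member and a group examined in this way these were the 2 that met Dixon's criterion, which chance meets in about 1 of 20. Both came from the same library, and the combinations share libraries, so they are not independent.

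The effect of Ikaros loss differed between CpG and HEL for 4 of 9 tested members by the limma interaction test. That test called 22.4% of 11050 genes, 15.2% as positive and 7.19% as negative. The difference, CpG minus HEL on the log2 scale, was 0.98 for Dusp1, 1.96 for Dusp2, 1.89 for Dusp4 and 1.52 for Dusp9. Dusp9 passed the filter through the CpG Cre fl/- libraries alone, so its value is a description only. A fit on the recovered reads did not call it (voom, adjusted p = 0.109). Dusp2 was lower without Ikaros after HEL and higher after CpG. The 2 pairs of groups also differ in genotype, in Cre in the controls and in library series.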

How the results depend on the processing

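Over the members' tests, 801 alternative values kept their direction and side of the threshold, 20 passed it where the reported value did not, 23 no longer passed it, and 29 changed sign, all 29 among differences called neither as reported nor under the alternative; the cause of these changes was not tested. Of the sign changes, 23 came from leaving out a library. The log2 differences then ranged, after HEL, from −0.026 to 0.33 for Dusp6 and −0.011 to 0.10 for Dusp16 and, in the naive pair, from −0.72 to 3.42 for Dusp1, −0.32 to 0.43 for Dusp2, −1.28 to 0.16 for Dusp5, −0.049 to 0.20 for Dusp6 and −0.50 to 0.27 for Dusp16. They ranged from −0.11 to 0.49 for Dusp1 in anergic against naive cells, from −0.48 to 0.11 for Dusp1 in HEL fl/fl against naive cells, from −0.066 to 0.37 for Dusp5 in anergic against HEL fl/fl cells and from −0.28 to 0.26 for Dusp5 in CpG against HEL. The other sign changes were those of HEL Cre fl/fl against naive cells for Dusp6 (0.0032 with median-ratio scaling, 0.041 with a sex term) and Dusp16 (0.064 with median-ratio scaling), of anergic against HEL fl/fl cells for Dusp5 (−0.022 with median-ratio scaling), and of CpG against HEL for Dusp5 (0.060 with a pseudocount of 0.1, 0.039 with voom). No member's call was gained or lost in any of the 15 alternatives for Ikaros loss after HEL. With a term for the run, 7 members were called after CpG, and 21.4% of all genes tested. In the naive pair the count of genes called was 17 with median-ratio scaling, 0 with no filter or a pseudocount of 0.1, 55 with voom and 240 with a sex term, which called 2 members. The fit with a sex term had 1 library per genotype and sex there. Between anergic and HEL fl/fl cells median-ratio scaling called 2505 genes and 4 members. Leaving out 1 library gave 3262 to 3764 genes for Ikaros loss after HEL (5 to 5 members), 909 to 1907 after CpG (4 to 5), 0 to 0 in the naive pair (0 to 0), 323 to 1153 for anergic against naive (2 to 4), 3884 to 5153 for HEL fl/fl against naive (3 to 6), 5974 to 6839 for HEL Cre fl/fl against naive (5 to 6), 2800 to 5292 for anergic against HEL fl/fl (6 to 7) and 2036 to 2795 for CpG against HEL (3 to 5). The count fell by over 1.5 times, to 909, without the third CpG Cre fl/- library, to 353 without the first anergic library, to 323, 381 and 394 without the naive library 1, 2 and 3 in turn, and, against HEL fl/fl, to 2800 without the first anergic library. Where this left a single library in a group, as in the naive pair, it was assumed to vary like the other group. Median-ratio scaling gave 1768 higher and 1708 lower genes for Ikaros loss after HEL, 410 and 442 for anergic against naive, 2963 and 2825 for HEL Cre fl/fl against naive, and 1353 and 1063 for CpG against HEL.

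No paired analysis was possible because the labels carry no replicate numbers; the numbers used here follow the order of deposition. Depth limits the lowest members: Dusp9 had 0 to 7 reads per library outside CpG Cre fl/- cells, Spry2 1 to 18 reads in naive Cre fl/+, naive, HEL fl/fl and CpG Cre fl/+ cells, and Spry1 2 to 26 reads in all groups.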

Other observations

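Across the 28 libraries, members also varied together. Pearson's r of log2(TPM + 1) was −0.80 between Dusp9 and Dusp6, −0.74 between Dusp10 and Dusp6 and −0.70 between Spry2 and Dusp5, while it was 0.62 between Dusp2 and Dusp1, 0.63 between Dusp10 and Dusp9 and 0.60 between Dusp16 and Dusp10. The CpG libraries hold the highest Dusp9 and Dusp10 and the lowest Dusp6, and they also form a library series of their own.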
